A study of Mus musculus with 20 samples.

Results

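Metallothioneins bind metal and ferritins store iron, and their transcripts were examined here together with those of the proteins that carry iron into and out of cells. The 9 genes were the metallothioneins Mt1, Mt2 and Mt3, the ferritin subunits Fth1 and Ftl1, the plasma carrier transferrin (Trf), the transferrin receptor (Tfrc), the iron importer Slc11a2 and the iron exporter Slc40a1. They were taken by exact symbol from the 48709 genes of the deposited gene map, and all 9 were among the 19797 genes with enough counts to test. RNA was sequenced from the right hippocampus of 20 young adult C57BL/6 mice (C57BL/6J in the study's methods), in 4 groups of 5 mice: females and males whose dams inhaled filtered air (controls), and females and males whose dams inhaled nPM. nPM is nano-sized particulate matter from urban air, and it was given from gestational day 2 until birth, with sessions of 5 h on 3 days of each week. The labels give an air level of 300 mg/m3 where the study's methods have μg. The offspring inhaled no nPM after birth, so the groups model gestational exposure and not exposure of the adult brain. Females were 17.71 to 18.29 weeks old and males 18.57 to 19.14 weeks. The study's methods also describe EdU injections, used to mark new cells, in male mice before tissue collection. Sex, age and these injections therefore cannot be told apart. The study's methods give 5 litters per exposure, so among the 5 females and 5 males of an exposure some must share a litter. The labels do not tie the mice to litters, and litter mates may lie within 1 group or across the sexes.

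Metallothioneins are small cysteine-rich proteins that hold zinc and copper, and Mt1 and Mt2 are transcribed in response to metals, glucocorticoids and oxidative stress. In the brain Mt1 and Mt2 are made mainly by astrocytes, while Mt3 is the form named for its growth inhibitory activity in brain extracts. Ferritin is a shell of heavy (Fth1) and light (Ftl1) subunits, in which the heavy subunit oxidizes iron and the light subunit helps to lay it down. Iron reaches brain cells bound to transferrin, which oligodendrocytes and the choroid plexus make, enters by the transferrin receptor, crosses the endosomal membrane through Slc11a2 (DMT1) and leaves cells through Slc40a1 (ferroportin). Much of this handling is set after transcription: iron regulatory proteins bind hairpins called iron-responsive elements, blocking translation when the hairpin lies in the 5′ UTR and protecting the transcript when it lies in the 3′ UTR. A table of transcript counts therefore sees the second kind of control and not the first.

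The hairpins are shown because their place in the transcript sets which of the 2 kinds of control is known for each gene. Gencode M21 transcripts (mm10) were searched for C, 5 bases, CAGTGN and 5 bases that pair with the first 5, counting G and T as a pair. Such a match lay in the 5′ UTR of 31 of 21877 protein-coding genes (0.142%), among them Fth1, Ftl1 and Slc40a1, and in the 3′ UTR of 129 genes (0.59%), among them Tfrc. Each line gives 27 bases, 5′ to 3′ on the transcript strand, with the bulged C and the loop in capitals.
Fth1 (chr19:9982733-9982759, + strand): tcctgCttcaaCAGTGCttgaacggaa
Ftl1 (chr7:45459780-45459806, - strand): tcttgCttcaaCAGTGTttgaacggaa
Slc40a1 (chr1:45925466-45925492, - strand): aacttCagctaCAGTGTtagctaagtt
Tfrc site 1 (chr16:32631220-32631246, + strand): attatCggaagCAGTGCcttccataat
Tfrc site 2 (chr16:32631599-32631625, + strand): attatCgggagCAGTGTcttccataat
Tfrc site 3 (chr16:32631664-32631690, + strand): tatatCggagaCAGTGAtctccatatg
Tfrc site 4 (chr16:32631711-32631737, + strand): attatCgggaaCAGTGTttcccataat
The first 3 lie in the 5′ UTR and the 4 of Tfrc in the 3′ UTR. No match of this strict form was found in the annotated UTRs of Slc11a2, Trf, Mt1, Mt2 or Mt3. The search takes only stems in which all 5 bases pair, so a gene without a match may still carry an iron-responsive element.

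Mt1 and Mt2 lie next to each other on chromosome 8, with Mt3 before them on the same strand, and are known for metal response elements, the sites of the zinc-sensing factor MTF1. RefSeq promoters (GRCm38.p6) of 300 bases, 250 before and 50 after the start, were given for 6 of the 9 genes and were searched on both strands for the cores TGCACNC and TGCGCNC. Mt2 held 4 matches and Mt1 held 3, where 0.517% of 32851 promoters held at least 4 and 1.97% at least 3. Mt3 held 1, as 25.7% of all promoters did at the least. Tfrc held 2 in a promoter, where 7.11% of promoters held at least 2, and 0 in another. Fth1 and Ftl1 held 0. The 250 bases before the start of both genes are shown because these transcripts moved together across the libraries, with the cores in capitals and the + strand read 5′ to 3′. The other 2 matches of Mt1 and 1 of Mt2 lie after the start and are not shown.
Mt1 (chr8:94178839-94179088): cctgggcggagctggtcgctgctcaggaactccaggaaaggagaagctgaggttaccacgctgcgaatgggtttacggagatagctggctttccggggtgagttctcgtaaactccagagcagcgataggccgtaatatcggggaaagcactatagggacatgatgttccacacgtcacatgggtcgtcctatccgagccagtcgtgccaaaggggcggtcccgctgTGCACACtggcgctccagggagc
Mt2 (chr8:94172368-94172617): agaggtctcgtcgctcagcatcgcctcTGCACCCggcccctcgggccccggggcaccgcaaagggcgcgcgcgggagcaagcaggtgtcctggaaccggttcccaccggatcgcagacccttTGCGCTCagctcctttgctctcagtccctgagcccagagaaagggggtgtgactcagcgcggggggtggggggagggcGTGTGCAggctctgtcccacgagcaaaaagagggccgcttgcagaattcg

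Total counts were between 19092067 and 38663408 per library. All 6 hippocampal neuron markers (summed level 1676 to 4406 CPM, which is the count scaled to a common library total with TMM factors) and all 8 oligodendrocyte markers had counts in every library. Choroid plexus markers, 7 of 7 detected, summed to 32.3 to 501 CPM in 12 libraries, to 836 in nPM male 5 and to 1777 to 8241 in 7 libraries, called rich in choroid plexus markers below, of which 3 were control males, 2 nPM males and 2 nPM females. A pair of libraries, control male 1 and nPM female 4, stood apart in these genes and in the whole table. Their mean absolute log2 deviation from the other 4 libraries of their group, over all genes tested, was 0.43 and 0.49, where the other 18 libraries reached at most 0.40. They also had the lowest oligodendrocyte sums (2371 and 2880 CPM). Their protein-coding genes of under 1 kb had median log2 deviations of -0.23 and -0.50 from the rest of their group. On that measure control female 3 (-0.19) and nPM male 5 (-0.16) came next, close to control male 1. Control male 1 also had the lowest hippocampal neuron sum (1676 CPM), where nPM female 4 was at 3127 CPM. nPM female 4 had the fewest total counts. Each comparison below was therefore also made without both, a choice made after their values were seen. Fits without the libraries rich in choroid plexus markers keep both of the pair. Those fits leave control males 1 and 3, nPM males 1, 4 and 5, nPM females 2, 3 and 4 and all control females. In whole tissue, fewer cells of a type and less RNA per cell cannot be told apart.

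Per gene length in the deposited map, ferritin heavy chain RNA was the most abundant of the 9, and the exporter Slc40a1 the least. Fth1 had a mean level of 578 ± 55.6 RPKM (read counts scaled for this length and for library total with TMM factors, ± SD, n = 20). The metallothioneins followed at 145 ± 36.5 (Mt1), 133 ± 33.5 (Mt2) and 126 ± 23.6 RPKM (Mt3). On this scale the order among these 3 was not firm, since Mt1 exceeded Mt2 in 17 of 20 libraries and Mt2 exceeded Mt3 in 13. It also rests on the mapped lengths of 1246 bases for Mt1, 588 for Mt2 and 1066 for Mt3. The length of Mt1 covers its whole span from start to end, so any introns count in it, while those of Mt2 and Mt3 do not. The RPKM of Mt1 is therefore not on a like footing with theirs, and Mt1 had more counts than Mt2 in every library. Ftl1 was at 70.7 ± 17.02 RPKM and Tfrc at 27.9 ± 3.99 RPKM. Trf was at 9.23 ± 2.92, Slc11a2 at 5.74 ± 0.483 and Slc40a1 at 1.12 ± 0.145 RPKM. Outside the metallothioneins each gene exceeded the next in at least 18 libraries.

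**Figure D1:**
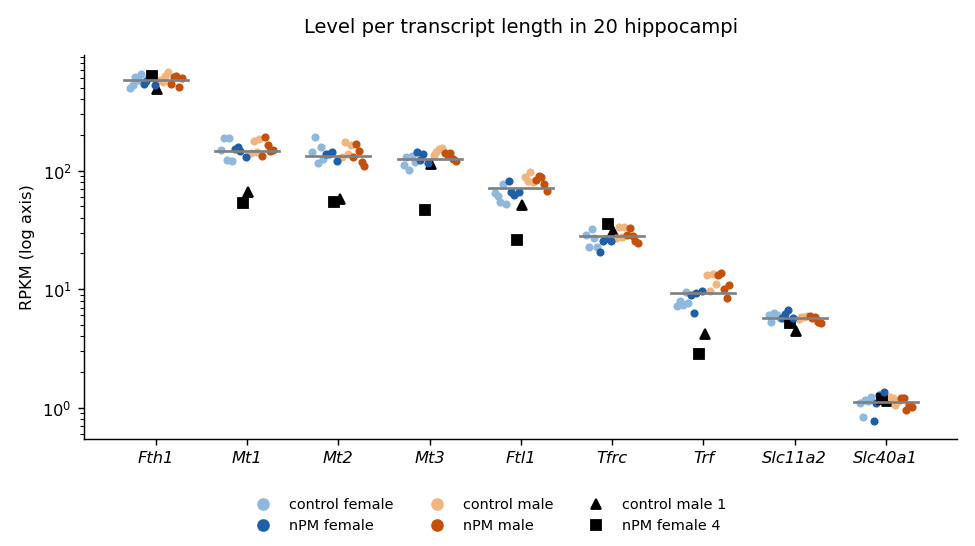
Level of each gene in RPKM (log axis) in 20 hippocampi, ordered by mean (grey bar), with groups by colour and the libraries control male 1 and nPM female 4 in black. The black points fall below the rest for Mt1, Mt2, Ftl1 and Trf, and that of nPM female 4 for Mt3, but they are not both low for Fth1, Tfrc and Slc40a1.

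Spread between mice of a group differed widely between the 9. The SD of log2 CPM within groups was 0.53 for Trf, 0.48 for Mt1 and 0.47 for Mt2, against a median of 0.256 over all genes tested. It was 0.13 for Slc11a2 and 0.15 for Fth1. Trf therefore ranged over 4.87-fold between the lowest and the highest library, and Fth1 over 1.39-fold.

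Mt1 (ENSMUSG00000031765.8, mm10 chr8:94179082-94180327) had 1216 to 8487 counts per library. In CPM, Mt1 measured 186, 233, 153, 236 and 151 in control females 1 to 5 and 189, 197, 182, 66.6 and 160.4 in nPM females 1 to 5. It measured 82.7, 176, 223, 179.8 and 229.9 in control males 1 to 5 and 167, 238, 206, 181 and 184 in nPM males 1 to 5. Control male 1 and nPM female 4 were lowest of all, at less than any other mouse, and the control and nPM ranges overlapped in both sexes.

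Mt2 (ENSMUSG00000031762.7, mm10 chr8:94172664-94173568), which encodes the sister isoform, followed the same pattern. In CPM, Mt2 measured 84.1, 113, 67.6, 92.8 and 73.0 in control females 1 to 5 and 81.7, 80.9, 84.8, 32.1 and 70.9 in nPM females 1 to 5. It measured 34.1, 76.3, 102, 81.7 and 96.2 in control males 1 to 5 and 76.3, 98.1, 85.3, 69.8 and 64.7 in nPM males 1 to 5. The same 2 libraries were lowest, and the groups again overlapped. The ratio of Mt1 to Mt2 counts stayed between 2.06 and 2.85 in all 20 libraries, with a median of 2.29.

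Mt3 (ENSMUSG00000031760.9, mm10 chr8:94152607-94154146) was low in nPM female 4 and not in control male 1 to the same degree. In CPM, Mt3 measured 119, 138, 107, 141 and 126 in control females 1 to 5 and 153, 131, 147, 49.3 and 124 in nPM females 1 to 5. It measured 120.4, 143, 154, 162 and 165 in control males 1 to 5 and 151, 148, 149.8, 133 and 129 in nPM males 1 to 5. Relative to the other 4 libraries of its group, nPM female 4 was at -1.49 for Mt3, -1.45 for Mt1 and -1.30 for Mt2 on the log2 scale. Control male 1 was at -1.28 for Mt1 and -1.37 for Mt2, and at -0.37 for Mt3. Between 3.14% and 4.21% of all genes tested lay lower than these values for Mt1, Mt2 and Mt3 in nPM female 4.

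Across libraries Mt1 and Mt2 varied together also among the libraries that did not stand apart. After each group mean was subtracted, Pearson's r of their log2 CPM was 0.974 over 20 libraries and 0.883 over the 18 without control male 1 and nPM female 4, with Spearman's rho of 0.893 over the 18. Mt2 was the gene most like Mt1, and Mt1 the gene most like Mt2, among all protein-coding genes tested. Next came ribosomal protein genes, Rps21 (r = 0.948) and Rps26 (0.934) for Mt1 and Rps28 (0.933) and Rps29 (0.932) for Mt2, which over the 18 libraries were at 0.741, 0.671, 0.648 and 0.599. Mt1 and Mt3 had r = 0.837 over 20 and 0.587 over 18 libraries. The points share library depth, the TMM factor and RNA composition, and these correlations are a description without a test.

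**Figure D2:**
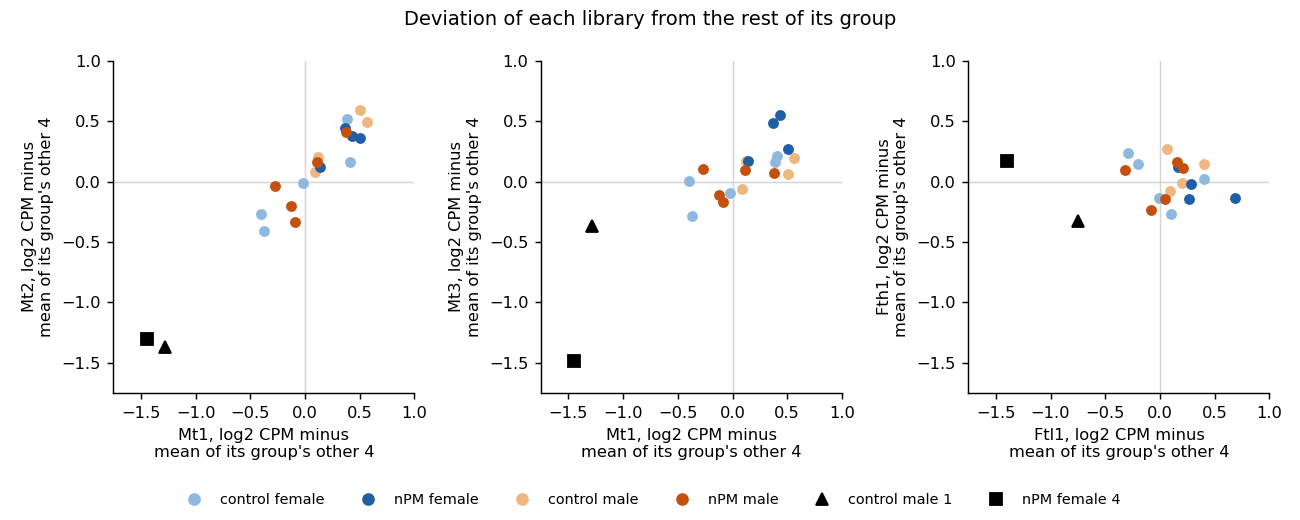
Each point is a library, placed by its log2 CPM minus the mean of the other 4 libraries of its group, for Mt2 against Mt1, Mt3 against Mt1 and Fth1 against Ftl1. Mt1 and Mt2 fall along a line, while nPM female 4 is at -1.40 for Ftl1 and at 0.17 for Fth1.

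Gestational nPM was compared with control in each sex, and metallothionein differences were within the spread between mice. In males, limma-voom gave log2 differences of 0.20 for Mt1 (95% interval -0.31 to 0.71), 0.09 for Mt2 (-0.46 to 0.64) and -0.06 for Mt3 (-0.26 to 0.13). In females they were -0.32 for Mt1 (-0.89 to 0.24), -0.32 for Mt2 (-0.83 to 0.19) and -0.14 for Mt3 (-0.68 to 0.40). The opposite signs of Mt1 and Mt2 in the sexes went with the libraries that stood apart, one of which is a control male and the other an nPM female. Without both, Mt1 was at -0.05 in males and -0.04 in females, Mt2 at -0.18 and -0.08, and Mt3 at -0.13 and 0.15, with limma p from 0.0732 to 0.802 over these 6 values.

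Ferritin heavy chain RNA was among the steadiest of the 9. Fth1 (ENSMUSG00000024661.6, mm10 chr19:9982703-9985092) had 9990 to 20871 counts per library. In CPM, Fth1 measured 426, 459, 536, 501 and 563 in control females 1 to 5 and 463, 493, 533, 547 and 459.6 in nPM females 1 to 5. It measured 418, 499, 479.6, 543 and 583 in control males 1 to 5 and 462, 533, 547, 437 and 526 in nPM males 1 to 5. The 4 groups covered nearly the same range, and control male 1 was just below the lowest control female while nPM female 4 was among the higher libraries. The nPM difference was -0.01 in males (-0.21 to 0.20) and 0.03 in females (-0.17 to 0.22) on the log2 scale, so these libraries bound a change of Fth1 RNA more closely than one of Mt1 or Mt2. Fth1 translation, which its 5′ hairpin controls, was not measured.

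Ferritin light chain RNA varied apart from the heavy chain. In CPM, Ftl1 measured 86.6, 81.7, 73.4, 102 and 69.6 in control females 1 to 5 and 110.2, 88.3, 82.8, 34.7 and 87.6 in nPM females 1 to 5. It measured 68.8, 117, 109.7, 130.4 and 108 in control males 1 to 5 and 111, 121, 118, 103 and 90.2 in nPM males 1 to 5. In Ftl1 (ENSMUSG00000050708.16, mm10 chr7:45457944-45459884) nPM female 4 was the lowest library and control male 1 was below every other male. The nPM difference was 0.05 in males (-0.28 to 0.37) and -0.09 in females (-0.62 to 0.44), and -0.10 and 0.18 without both libraries, with overlapping groups. The ratio of Fth1 to Ftl1 RPKM had a median of 7.86 and ran from 6.44 in control male 4 to 24.4 in nPM female 4, with 12.5 as the second highest. Deviations of Fth1 and Ftl1 from their group means had r = -0.0809 over 20 libraries and -0.245 over 18.

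**Figure D3:**
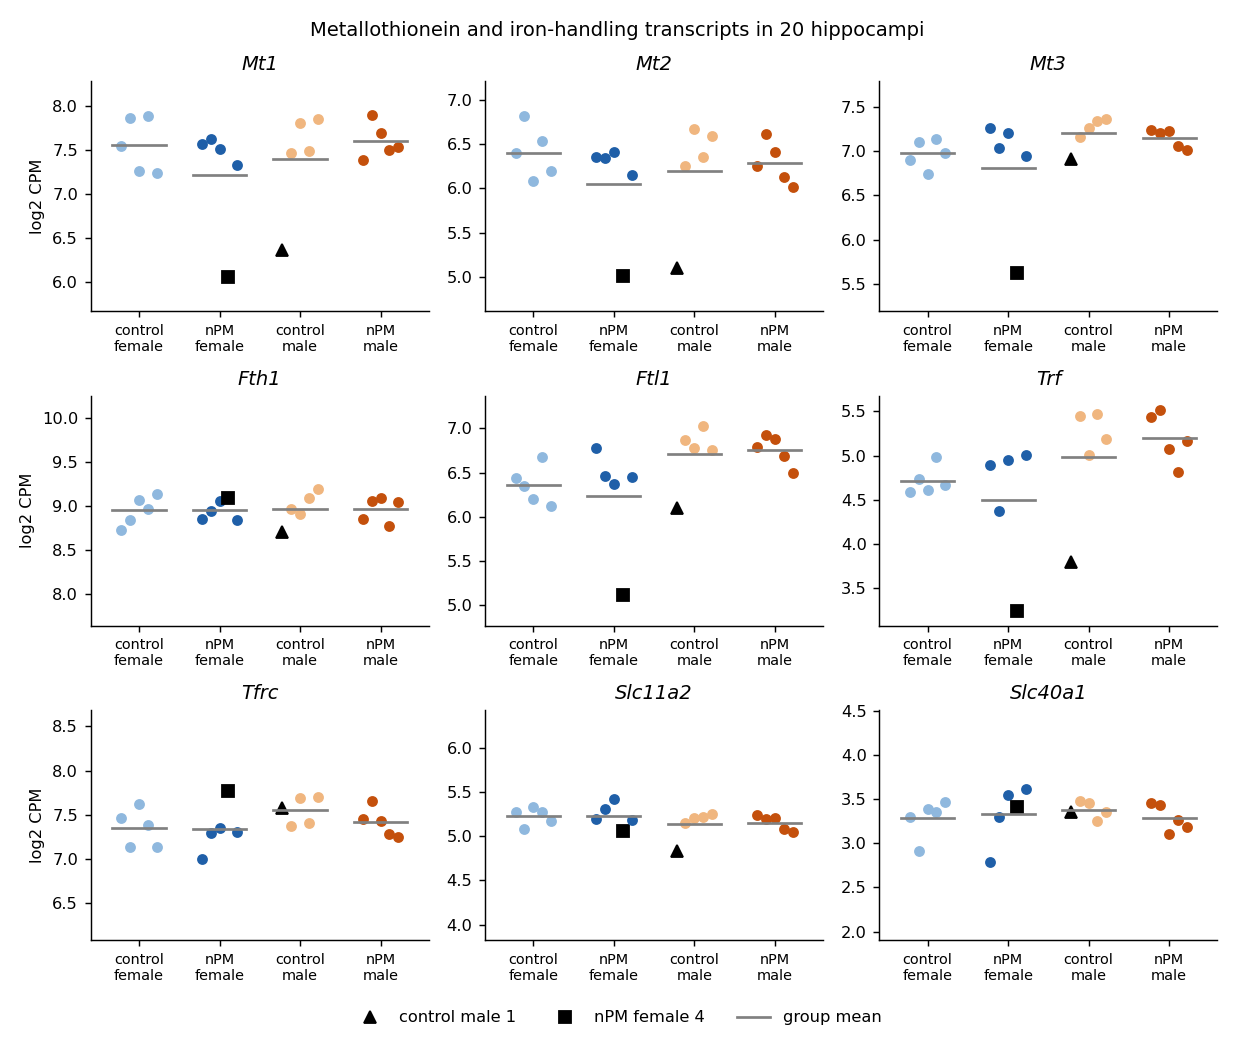
log2 CPM of the 9 genes in each of 20 hippocampi, by group, with a grey line at the group mean and every panel spanning the same range of log2 units. Control male 1 (triangle) and nPM female 4 (square) are lowest for Mt1, Mt2, Trf and, for the square, Mt3 and Ftl1, and the control and nPM points overlap in every panel.

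Transferrin RNA varied most between mice. In CPM, Trf measured 24.1, 26.6, 24.4, 31.7 and 25.4 in control females 1 to 5 and 29.6, 20.8, 31.0, 9.42 and 32.2 in nPM females 1 to 5. It measured 13.91, 43.6, 32.1, 44.5 and 36.6 in control males 1 to 5 and 43.3, 45.8, 33.6, 28.1 and 35.9 in nPM males 1 to 5. Trf (ENSMUSG00000032554.15, mm10 chr9:103204001-103230444) was lowest in nPM female 4 and control male 1, with 172 and 373 counts, and no other library was below 20.8 CPM. The nPM difference was 0.20 in males (-0.40 to 0.79) and -0.15 in females (-0.71 to 0.42), and -0.09 and 0.12 without both. Without the libraries rich in choroid plexus markers it was 0.73 in males and -0.45 in females, neither with p under 0.05. In males that fit left only control males 1 and 3 and nPM males 1, 4 and 5, so the low control male 1 stayed in. In females it left nPM females 2, 3 and 4, with the low nPM female 4 among them. Trf moved with the summed oligodendrocyte markers (r = 0.845 over 20 and 0.73 over 18 libraries, after group means were subtracted) and with the choroid plexus sum (0.523 and 0.467), as a description. It was also at 0.68 and 0.245 with the microglia sum and at 0.316 and 0.501 with the endothelial sum. With the astrocyte sum it was at -0.35 and -0.284. Oligodendrocytes and choroid plexus are known sources of transferrin, but these values are not particular to them, and their part was not tested.

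Tfrc (ENSMUSG00000022797.15, mm10 chr16:32608920-32632794), whose RNA carries the 4 hairpins shown above, differed less. In CPM, Tfrc measured 177, 140.2, 197, 168 and 141 in control females 1 to 5 and 128, 157, 164, 218 and 158 in nPM females 1 to 5. It measured 192, 166, 207, 169.5 and 207 in control males 1 to 5 and 176, 201, 173, 156 and 152 in nPM males 1 to 5. nPM female 4 was the highest of all libraries here. The nPM difference was -0.13 in males (-0.34 to 0.07) and 0.01 in females (-0.29 to 0.30). In males it was -0.20 (adjusted p = 0.923) without nPM male 2, and -0.31 (adjusted p = 0.677) without the libraries rich in choroid plexus markers, with a limma p under 0.05 before adjustment in both. The latter fit left only control males 1 and 3 and nPM males 1, 4 and 5.

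Slc11a2 (ENSMUSG00000023030.16, mm10 chr15:100387898-100425072) lay between 28.4 and 42.7 CPM in all 20 libraries and had the smallest SD of log2 CPM within groups of the 9, while Fth1 had the smaller ratio of highest to lowest library. Its nPM difference was 0.02 in males (-0.17 to 0.20) and 0.02 in females (-0.16 to 0.20), the narrowest intervals in either sex. Control male 1 was its lowest library. Over the 18 libraries that did not stand apart, Slc11a2 and Tfrc had r = 0.741, against 0.146 over all 20.

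Slc40a1 (ENSMUSG00000025993.10, mm10 chr1:45908068-45926523), the only known cellular iron exporter, had 194 to 414 counts per library. In CPM, Slc40a1 measured 9.80, 7.49, 10.48, 10.21 and 10.99 in control females 1 to 5 and 6.91, 9.83, 11.63, 10.62 and 12.25 in nPM females 1 to 5. It measured 10.22, 11.11, 10.93, 9.54 and 10.19 in control males 1 to 5 and 10.97, 10.80, 8.60, 9.56 and 9.08 in nPM males 1 to 5. The lowest libraries were nPM female 1 and control female 2, not the libraries that were low in Mt1. The nPM difference was -0.08 in males (-0.29 to 0.12) and 0.06 in females (-0.30 to 0.42).

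Over the 9 genes, 0 had p under 0.05 and 0 had p under 0.005 by limma-voom for exposure, whether both sexes or either sex alone was fitted. Over all genes tested, 2.1% had p under 0.05 and 0.141% had p under 0.005 with both sexes. In males these shares were 4.28% and 0.207%, and in females 1.99% and 0.0909%. Among 9 genes, shares this low leave a count of 0 near the background. The 9 log2 differences with both sexes ran from -0.12 to 0.04 with a median of -0.03, where all genes tested had a median of -0.01. In males the median of the 9 was 0.02 (range -0.13 to 0.20) and in females -0.09 (-0.32 to 0.06). The edgeR quasi-likelihood test and the DESeq2 Wald test also gave 0 of 9 at p under 0.05 in each. Two-sided exact permutation tests of the 9 genes in each sex, 18 in all, gave p from 0.222 to 0.984, where 5 mice against 5 allow 0.00794 at the least.

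**Figure D4:**
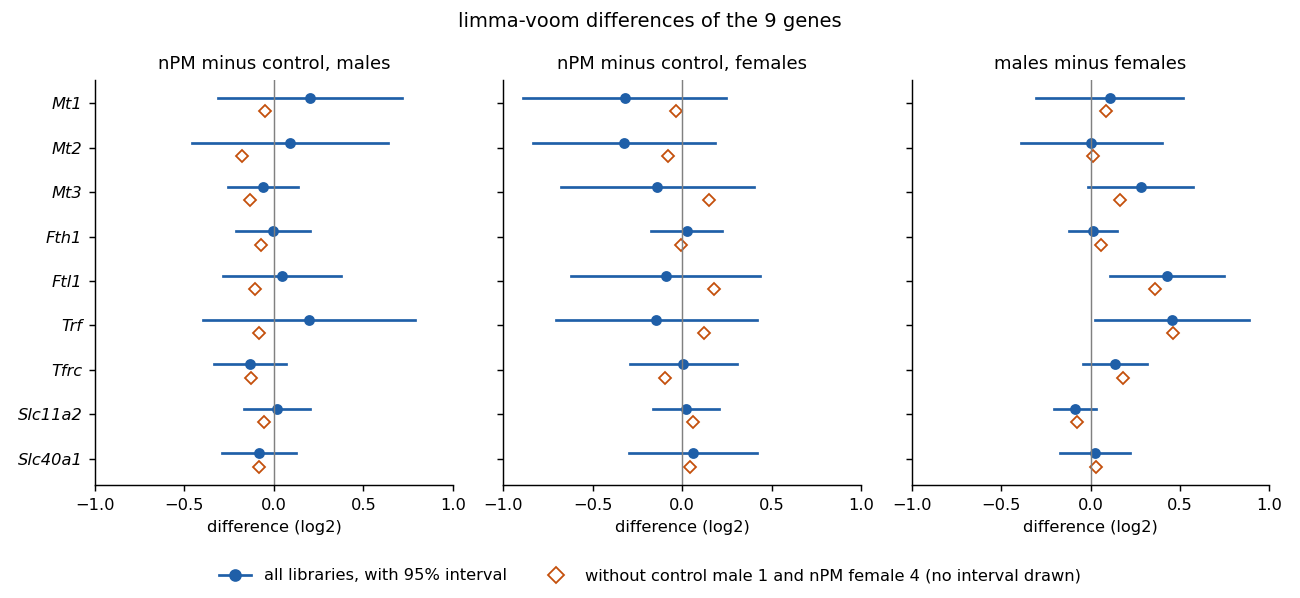
Log2 differences of the 9 genes with 95% intervals (blue) for nPM minus control in males, in females, and for males minus females, and the values without control male 1 and nPM female 4 (orange, no interval drawn). All 18 exposure intervals hold 0, and in the panel of sexes those of Ftl1 and Trf do not.

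Whether the nPM effect differed between the sexes was tested as an interaction. Of the 9 genes 0 had p under 0.05 or under 0.005 by limma-voom, edgeR or DESeq2, where 3.79% and 0.217% of all genes did by limma-voom. Mt1 had the largest value, a male effect higher than the female by 0.54 (-0.26 to 1.34, adjusted p = 0.987), followed by Mt2 with 0.43 (-0.35 to 1.21). Without control male 1 and nPM female 4 these values were 0.00 and -0.08, and Mt3 was at -0.27, with p under 0.05 and adjusted p = 0.772. Without the libraries rich in choroid plexus markers Trf was at 1.18, with p under 0.05 and adjusted p = 0.611. That fit kept control male 1 and nPM female 4, the libraries lowest in Trf, and its only other control male was control male 3.

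Males and females were compared with exposure as a covariate, and Ftl1 and Trf were higher in males at p under 0.05. Of the 9 genes 2 had p under 0.05 and 0 had p under 0.005 by limma-voom, where 48.4% and 31.1% of all genes tested did, and 1 had an adjusted p under 0.05, where 40.4% did. Against such a background these 2 calls are nothing particular to the 9 genes. Ftl1 was higher in males by 0.43 on the log2 scale (0.11 to 0.74, adjusted p = 0.0308) and Trf by 0.46 (0.03 to 0.88, adjusted p = 0.0838). Apart from control male 1 and nPM female 4, Ftl1 ran from 90.2 to 130.4 CPM in males and from 69.6 to 110.2 CPM in females, of which 2 were above the lowest of these males. Trf ran from 28.1 to 45.8 CPM in these males and from 20.8 to 32.2 CPM in these females.

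Without control male 1 and nPM female 4 the sex difference of Ftl1 was 0.36 (limma, adjusted p = 0.00187) and that of Trf 0.46 (adjusted p = 0.00205). In the same fit Mt3 was higher in males by 0.17 (adjusted p = 0.0497) and Tfrc by 0.18 (adjusted p = 0.0727). Without the libraries rich in choroid plexus markers, Ftl1 was at 0.38 (adjusted p = 0.212) and Trf at 0.28 (adjusted p = 0.516), neither with p under 0.05. Left out singly, control female 3, control males 2, 4 and 5, nPM females 2 and 4 and nPM males 1, 2 and 5 each moved Trf to a p between 0.0512 and 0.078, and no single library moved Ftl1 past 0.05. Of 8 oligodendrocyte markers 4 (50%) were higher in males and 0 lower at p under 0.05 by limma-voom. Of all genes tested 48.4% passed in either direction, 4613 higher and 4978 lower of 19797. All 8 oligodendrocyte markers had a difference above 0, with a median of 0.28 on the log2 scale. Of 7 choroid plexus markers 0 passed, though all 7 were above 0, with a median log2 difference of 1.22. The part of either marker list in the difference of Trf was not tested. Mt1, Mt2, Fth1 and Slc40a1 had sex differences between 0.00 and 0.11, with p from 0.595 to 0.984.

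A wider list of 86 genes of iron, heme, zinc and copper handling, of which 73 were tested, was read in the same fits. With both sexes 2 of the 73 (2.74%) had p under 0.05 by limma-voom, close to the background of all genes. Slc30a1, which exports zinc from cells, was at -0.12 after nPM and Cox17, which carries copper to mitochondria, at 0.15, with an adjusted p of 0.9998 for both. In males the 2 were Slc30a4 at -0.16 and Slc30a1 at -0.15, with an adjusted p of 0.963 for both. In females they were Flvcr2 at 0.83 and Fech, which inserts iron into heme, at 0.16, with an adjusted p of 0.9999 for both. Fech also had an interaction of -0.23 with p under 0.05 (adjusted p = 0.987), the only 1 of the 73. Groups of the list for iron uptake, storage, export and regulation held 0 calls in each of the 3 exposure fits.

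Between the sexes 33 of the 73 genes (45.2%) passed p under 0.05 by limma-voom, 28 higher and 5 lower in males, beside 48.4% of all genes. Of all genes tested 4613 were higher and 4978 lower in males at this threshold. Whether the split of the list differs from that of all genes was not tested. The zinc list held 10 higher and 1 lower of 20, heme 8 and 1 of 15, mitochondrial iron 4 and 1 of 7 and copper 4 and 0 of 9. The smallest p was that of Slc39a2, a zinc importer, with a male minus female difference of -0.76 (adjusted p = 3.93e-05). Slc30a4 and Slc30a1 were higher in males by 0.44 (adjusted p = 4.69e-05) and 0.34 (adjusted p = 6.03e-05). The list for iron uptake held 1 call among 10 genes and that for iron storage 1 among 3.

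For the other members too, the genes most alike across the libraries were found, as a description of these 20 libraries. Ftl1 was most like Nubp2 (r = 0.969), Gm11808 and Uqcr10 (both 0.965), and Trf most like Tmem258 (0.965), Plod1 (0.96) and Cmtm5 (0.958). Mt3 was most like Mrpl4 (0.965), Tbc1d13 (0.96) and Rxrb (0.959). Without control male 1 and nPM female 4 these 9 values were 0.725 to 0.863. Fth1 was most like Skida1 (0.829), Dnah9 (0.824) and Tmcc3 (0.821), which over the 18 libraries were at 0.783, 0.782 and 0.832. Fth1 also moved with the summed hippocampal neuron markers (r = 0.734 over 20 and 0.72 over 18 libraries), where Ftl1 was at 0.169 and -0.384. With the oligodendrocyte sum Fth1 was at 0.562 and 0.554. With the astrocyte sum it was at 0.306 and 0.355, with the choroid plexus sum at 0.339 and 0.318, and with the blood sum at -0.32 and -0.131. The part of any cell type was not tested. Tfrc was most like Tapt1 (0.906), Asb5 (0.893) and Maip1 (0.87), Slc11a2 like Wrap53 (0.931), Rhog (0.903) and Ifitm10 (0.901), and Slc40a1 like Trmu (0.769), Cyp3a13 (0.748) and Ano5 (0.739).

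Reads of near copies and of overlapping genes can be assigned to the wrong gene. The ferritin copy Fth-ps2 had 9 to 74 counts per library, Ftl1-ps1 9 to 72 and Ftl2-ps 1 to 48, far under the counts of Fth1 and Ftl1. Ftl1-ps2 and Fth-ps3 had at most 7 and 2, and Mt4, the metallothionein of stratified epithelia, had 0 to 3. The mitochondrial ferritin Ftmt and the Fthl17 genes had 0 counts in all 20 libraries, which allows up to 3 counts, or 0.0776 to 0.157 CPM, in each. Antisense partners overlap Mt2 (Gm45774, 7 to 27 counts), Ftl1 (Gm10252, 1 to 13) and Slc11a2 (Gm5475, 0 to 2). How the counting treated strand and reads with several alignments is not given in the sources used here, so the counts of Fth1 and Ftl1 could have gained or lost reads to their copies.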

How the data were processed

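Hippocampal RNA of 20 mice was depleted of ribosomal RNA (RiboZero Gold) and sequenced on an Illumina HiSeq. The authors checked reads with FastQC, trimmed adapters with Trimmomatic where needed, aligned to mm10 with HISAT2 and counted per gene with featureCounts 1.5.0-p3 on Gencode M11. The authors deposited whole-number counts without normalization, and a gene map with lengths and a mean RPKM. A mean RPKM computed from these counts and lengths differed from the deposited mean RPKM by at most 4.91e-11. The RPKM values per library reported here also carry TMM factors, which that comparison does not check.

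Low counts were filtered with filterByExpr across the 4 groups (minimum count 10, minimum total 15), and the rest were scaled by TMM (edgeR 4.0.16) and fitted by limma-voom (limma 3.58.1, R 4.3.3) with empirical Bayes moderation, as in the study's methods. Log2 CPM has 0.5 counts added. Fits were exposure with sex as covariate, exposure in each sex, their interaction, and sex with exposure as covariate, with two-sided p read at 0.005 (the study's threshold) and 0.05, and Benjamini-Hochberg adjusted over 19797 genes. Alternatives included edgeR's quasi-likelihood test and DESeq2 1.42.0. Between 19092067 and 38663408 counts per library leave counting error small beside the spread between mice: same-group pairs differed 14.1 to 76.7 times more than counting noise over 40 pairs, and no pair looked like repeats of a single library. On simulated counts with 200 genes changed 2-fold, p under 0.05 recovered 190 with both sexes, 180 in males, 182 in females, 159 for the interaction and 193 between the sexes, each over 19797 genes. The simulated counts were drawn gene by gene, without the differences between whole libraries seen here. They check the fits and do not give the recovery to be had in these data.

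The 9 genes are named in every fit, at most the 6 genes of the wider list with the smallest p under 0.05 in a fit, and for each of the 9 the 3 protein-coding genes with the highest correlation. The members and lists were chosen with earlier results of these data known. Nothing in the labels says how mice of a group or of both sexes share a litter, and no fit took litter into account. The p-values therefore measure the spread between these samples. Replicate numbers were checked for pairing: 3 of 10 same-numbered pairs had correlations over 0.1 (range -0.364 to 0.157), so they do not pair the samples. Figures were drawn with Python 3.11.15 and matplotlib 3.10.9.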

Additional observations from a re-analysis of the deposited data

Results flagged for a closer look

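In 36 groups of 5 libraries (9 genes in 4 groups), 8 had a sample whose gap to its nearest neighbor was over 0.71 of the whole range. For a single group chance gives about 1 in 20. The 9 genes were measured in the same libraries and several vary together, so the 36 are not independent. The count of 8 therefore cannot be set against that rate. All 8 were the lowest library of their group, and all were control male 1 or nPM female 4. In nPM female 4 these were Mt1 at 6.06, Mt2 at 5.01, Mt3 at 5.62 and Ftl1 at 5.12 log2 CPM. In control male 1 they were Mt1 at 6.37, Mt2 at 5.09, Trf at 3.80 and Slc11a2 at 4.83 log2 CPM. Fth1, Tfrc and Slc40a1 had 0 such samples. Neither library was labelled as different from its group, and the cause was not tested.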

How the results depend on the processing

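The number of the 9 genes with p under 0.05 or 0.005 for exposure stayed at 0 with both sexes under every alternative run, and in females likewise, including the replicate block (0 genes in each exposure fit and in the interaction). In males 1 gene, Tfrc, passed p under 0.05 without the choroid-plexus-rich libraries, and between 0 and 1 passed when each library was left out. In the interaction 1 gene passed without control male 1 and nPM female 4 (Mt3) and 1 without the choroid-plexus-rich libraries (Trf). Fits without the choroid-plexus-rich libraries kept that low pair and, of the control males, only 1 and 3. Between the sexes the count of 2 became 4 with sample quality weights and 4 without the low pair (2 at p under 0.005 in both), 0 without the choroid-plexus-rich libraries, and 1 to 3 (0 to 2 at p under 0.005) with 1 library left out. Exact tests within a sex gave 0 of 18 throughout.

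Signs turned as follows, all with p over 0.1. Without control male 1 and nPM female 4: in males Mt1 -0.053, Mt2 -0.18, Ftl1 -0.10, Trf -0.085 and Slc11a2 -0.056, in females Mt3 0.15, Fth1 -0.0079, Ftl1 0.18, Tfrc -0.096 and Trf 0.12, and in the interaction Mt2 -0.085. With sample quality weights: in males Mt2 -0.052, Ftl1 -0.038, Trf -0.013 and Slc11a2 -0.027, in females Ftl1 0.031 and Tfrc -0.028. Without the choroid-plexus-rich libraries: in males Mt3 0.012 and Fth1 0.077. Tfrc in females was -0.016 without a filter on low counts and -0.0092 in 1 fit of the 4 groups.

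With 1 library left out, values in males ran from -0.053 to 0.32 (Mt1), -0.18 to 0.20 (Mt2), -0.072 to 0.048 (Fth1), -0.10 to 0.12 (Ftl1), -0.085 to 0.32 (Trf) and -0.056 to 0.046 (Slc11a2). In females they ran from -0.25 to 0.15 (Mt3), -0.027 to 0.074 (Fth1), -0.23 to 0.18 (Ftl1), -0.096 to 0.091 (Tfrc), -0.27 to 0.12 (Trf), -0.029 to 0.060 (Slc11a2) and -0.027 to 0.21 (Slc40a1). The lower bound of Mt1, Mt2, Ftl1, Trf and Slc11a2 in males came without control male 1, and the upper bound of Mt3, Ftl1 and Trf in females without nPM female 4. Apart from the effect of the libraries left out, the cause of these changes was not tested. Without a filter on low counts the median sex difference of all genes was -0.10, against 0.02.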

Other observations

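A list of 12 genes that glucocorticoids induce, all 12 with counts in every library, was read because Mt1 and Mt2 are among the genes these hormones induce. With both sexes 3 of 12 had p under 0.05 by limma-voom, where 2.1% of all genes tested did, and the 3 were lower after nPM: Tsc22d3 at -0.25, Plin4 at -0.55 and Sult1a1 at -0.33, each with an adjusted p of 0.9998. In females 2 of 12 passed, Plin4 at -0.89 and Cdkn1a at -0.82 (adjusted p = 0.9999 for both), and in males 0, where 1.99% and 4.28% of all genes did. With so few genes nothing particular to the list is read from these counts. The list's median difference was -0.11 with both sexes, where Mt1 was at -0.07 and Mt2 at -0.12 and neither passed. The summed level of the list had r = 0.529 with Mt1 and 0.531 with Mt2 over 20 libraries after group means were subtracted, and 0.536 and 0.509 over the 18 without control male 1 and nPM female 4, as a description.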
